A study of Homo sapiens with 12 samples.

Results

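The comparison described here set U937 cells exposed for 24 h to MC2494 against cells of the same line labelled control. Its members were chosen by label, as the 4 arrays with the treatment MC2494 and the 4 with the treatment control, which are 8 of the 12 arrays in the series. The remaining 4 arrays came from cells given EX527, a known SIRT1 inhibitor, and their values are described only where the compounds are set side by side. Those 4 arrays also entered the normalization, the probe filter, the choice of probe and the shared estimate of spread behind every p-value. U937 is an established human leukaemia line of monocytic character, grown in RPMI with 2 mM glutamine, penicillin and streptomycin. MC2494 is introduced by the series as a sirtuin inhibitor. The labels give no dose for the compound, name no vehicle and no time for the controls, and leave unstated whether each array had its own culture. P-values therefore reflect only array-to-array spread, part or all of which may be technical. RNA was taken up in TRIZOL, and 3000 ng per sample was labelled with biotin for Illumina bead arrays.

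Sirtuins are deacetylases that use NAD, and they act on histones, on transcription factors such as p53 and FOXO proteins, and on metabolic enzymes. In a dividing leukaemia cell, genes of DNA synthesis are switched on by E2F factors and genes of mitosis by the MuvB complex with B-MYB and FOXM1. The same MuvB core, joined to RB family proteins as the DREAM complex, holds both sets down when the inhibitor p21 blocks the cyclin-dependent kinases. A separate programme, the integrated stress response, slows translation while ATF4 and CHOP, both transcription factors, induce genes of amino acid supply, redox defence and cell death.

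Probes with a detection p under 0.05 on at least 4 of the 12 arrays were kept, 13174 of 24526, and these gave 9956 named genes, each represented by its brightest probe. Values are log2 intensities after background correction and quantile normalization, and a level cannot be compared between genes because probes differ in brightness. Mean raw signal was 779 ± 14.5 in control and 663 ± 31.0 in MC2494 (SD, n = 4 arrays), or 85.0% of control (exact permutation test over the 8 arrays, 2-sided, p = 0.0286, which no split of 4 against 4 can undercut). Between 12231 and 12784 probes were detected on the control arrays and between 12524 and 13030 on the MC2494 arrays (exact permutation p = 0.2). Normalization removes that difference in total signal, so every change below is relative to the other genes. Of 20 markers of monocytic lines 18 were measured, and their summed normalized intensity was 65084 to 69973 in control and 67819 to 68766 in MC2494. Of those 18, 10 rose and 5 fell, the falls being LYZ (-1.83), ANPEP (-1.61), FCER1G (-0.39), CD14 (-0.18) and CTSG (-0.13) on the log2 scale. The CD14 call was lost without control replicate 2, 3 or 4 or MC2494 replicate 2, and the CTSG call with any array left out but control replicate 1. CD33 had no probe in the annotated table, and MPO was not detected on any array. Of markers of other cells, 4 of 16 lymphocyte, 4 of 15 erythroid or megakaryocyte and 2 of 14 epithelial or fibroblast genes were measured, and CD3D, CD3E, PAX5, HBB, KRT18 and COL1A1 were not detected on any array. The summed intensity of the lymphocyte markers was 8673 to 9028 in control and 7892 to 8293 in MC2494, and that of the erythroid or megakaryocyte markers was 281 to 323 in control and 219 to 245 in MC2494, both lower without overlap. The falls among them were of CD79A, 3.24-fold lower, EPOR, 1.40-fold lower, and PPBP, at least 1.81-fold lower, while CD79B (0.42) rose. The epithelial or fibroblast sum was 90.6 to 105 in control and 101 to 113 in MC2494. Whether other cells had a part in any result was not tested.

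A gene is written as called, or as having risen or fallen, at a limma adjusted p under 0.05 (Benjamini-Hochberg over all genes). By that rule 72.5% of the genes tested were called, 37.5% higher and 35% lower, so a share of called genes near these values says nothing particular about a list. Most changes were small: the median absolute log2 fold change was 0.38, against a median standard error of 0.07, and 3964 called genes differed by under 1.5-fold. At least 2-fold differed 1217 genes, or 12.2%, with 648 (6.51%) higher and 569 (5.72%) lower. Under median scaling, used instead of quantile normalization, the split was 561 higher of 1308, that is 42.9% higher against 53.2%. The median log2 fold change over all genes was 0.01, with quartiles of -0.36 and 0.41, and all list medians below stand beside that value. Groups without overlap, all 4 MC2494 values lying on one side of all 4 control values, were found in 65.7% of genes. At the far end, 50 genes were at least 4-fold higher and 57 at least 4-fold lower.

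**Figure D1:**
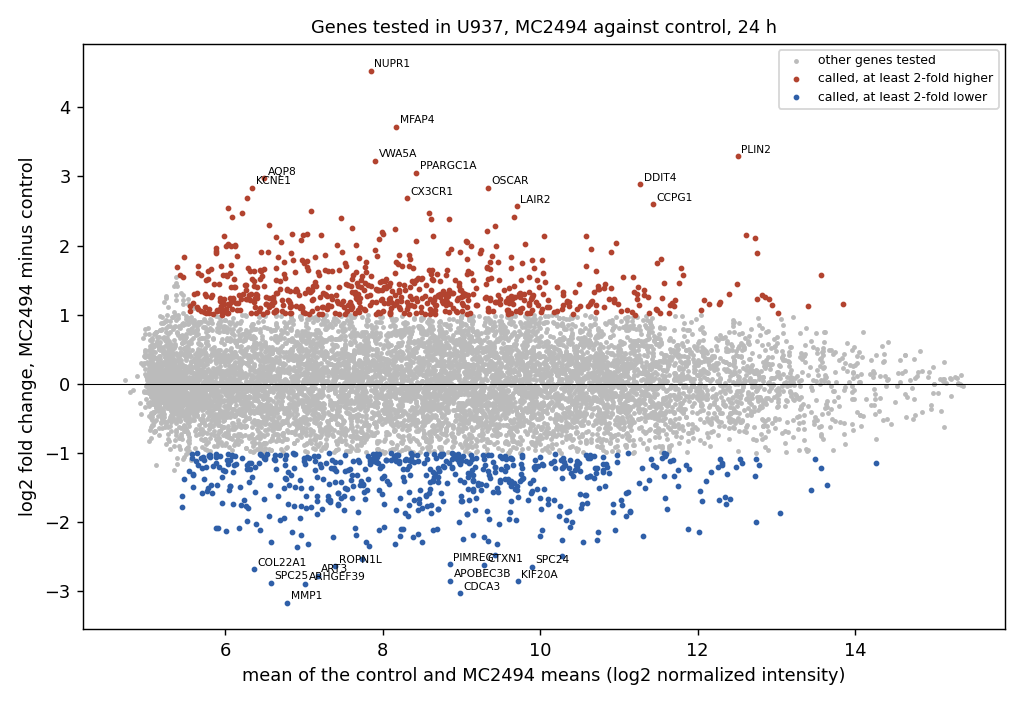
Log2 fold change of MC2494 against control (vertical axis) by mean log2 normalized intensity (horizontal axis) for 9956 genes. Red and blue points are the 648 genes at least 2-fold higher and the 569 at least 2-fold lower. Named are the 12 largest rises and falls among called genes whose groups did not overlap, less the symbols left out in the text. NUPR1 at 4.53 and MMP1 at -3.17 mark the 2 ends of that set.

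The 25 largest rises and 25 largest falls were drawn from called genes whose groups did not overlap. Symbols of the LOC, FLJ, KIAA, orf, FAM, TMEM or LINC kind and similar ones were left out. Members of the cell cycle lists numbered 7.0 of those 25 falls, against 2.43% of all genes tested, and these were SPC25, KIF20A, SPC24, INCENP, RRM2, CCNA2 and FOXM1. The ATF4 and CHOP list gave 4.0 of the 25 largest rises, NUPR1, DDIT4, DDIT3 and CCPG1, against 0.191% of all genes tested. These shares set a filtered group of genes beside all genes tested and are descriptions with no test. NUPR1, a small stress-induced chromatin protein, read 5.50, 5.65, 5.57 and 5.62 on the control arrays and 10.20, 10.05, 10.16 and 10.05 on the MC2494 arrays (log2 normalized intensity, as in all such values below). Every MC2494 value lay far above every control value, a rise of 23.1-fold (log2 fold change 4.53 ± 0.06, SE; limma adjusted p = 3.13e-15). MFAP4, a glycoprotein of elastic fibres, read 6.22, 6.31, 6.28 and 6.46 on the control arrays and 9.96, 10.04, 10.08 and 10.05 on the MC2494 arrays. Its rise was 13.1-fold (log2 fold change 3.72 ± 0.06, SE; limma adjusted p = 2.21e-14), with no overlap. A set of 142 genes was undetected throughout the controls and detected on all 4 MC2494 arrays, and 54 genes showed the reverse. In the first set GPR34, a lysophosphatidylserine receptor of myeloid cells, was at least 4.37-fold higher, and ZMYND15 was at least 4.31-fold higher. In the second set CEACAM6, a granulocyte adhesion molecule, was at least 3.48-fold lower, and the chemokine gene CCL7 was at least 2.21-fold lower. KIR2DL3 was at least 3.55-fold lower in the same way, although its probe may read other genes of the near-identical killer cell receptor family.

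**Figure D2:**
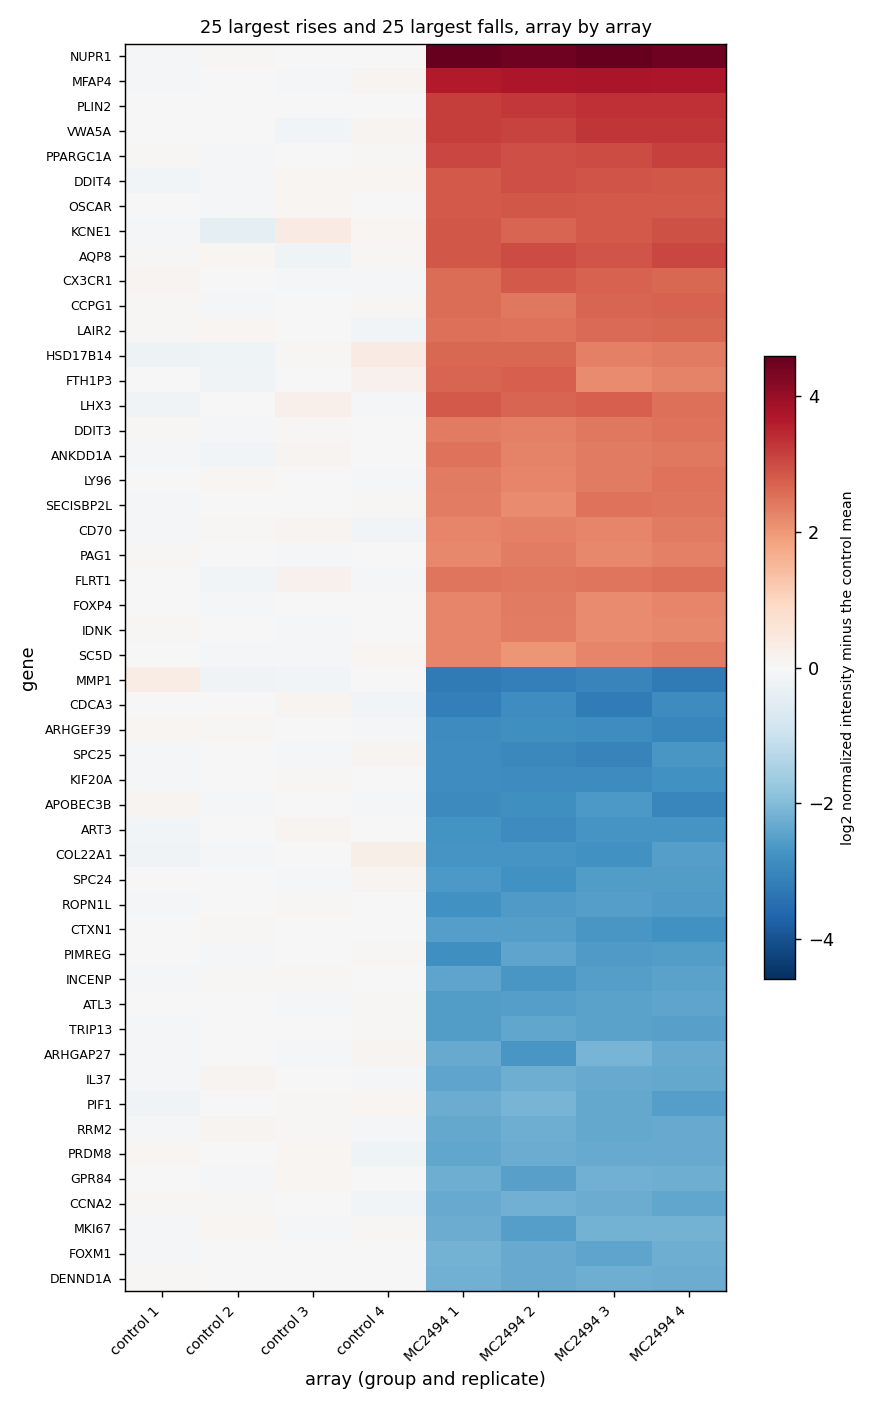
Log2 normalized intensity minus the control mean (colour) for the 25 largest rises and the 25 largest falls (rows) on 4 control and 4 MC2494 arrays (columns). Within each row the 4 arrays of a group have like colours, and the top row, NUPR1, is 4.53 above control on average. Rows were chosen among called genes whose groups did not overlap, so the separation shown follows from that rule.

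Promoters of the division and stress genes are shown first, because the lists that moved furthest are those whose control elements are well described. The windows run from 250 bases before to 50 after the gene start, from RefSeq on GRCh38.p14, and 8311 of the 9956 genes tested had one. Capitals mark the searched motif on either strand, lower case the rest. INCENP (chr11:62123761-62124060, plus strand) and SPC25 (chr2:168890381-168890680, minus strand) hold the cell cycle genes homology region, TTTGAA, to which the MuvB core binds. MCM7 (chr7:100101348-100101647, minus strand) and TYMS (chr18:657403-657702, plus strand) hold an E2F site, searched as TTTCCCGC, TTTGGCGC, TTTCGCGC or TTTGCCGC. ASNS (chr7:97872359-97872658, minus strand) and ATF3 (chr1:212565157-212565456, plus strand) hold TGATGNAA, the C/EBP-ATF response element bound by ATF4.

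INCENP: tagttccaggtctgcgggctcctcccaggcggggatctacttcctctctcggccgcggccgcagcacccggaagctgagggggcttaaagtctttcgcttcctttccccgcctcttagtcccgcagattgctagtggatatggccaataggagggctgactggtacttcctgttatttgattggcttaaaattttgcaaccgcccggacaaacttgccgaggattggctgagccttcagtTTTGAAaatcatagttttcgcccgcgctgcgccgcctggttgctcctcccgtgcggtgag
SPC25: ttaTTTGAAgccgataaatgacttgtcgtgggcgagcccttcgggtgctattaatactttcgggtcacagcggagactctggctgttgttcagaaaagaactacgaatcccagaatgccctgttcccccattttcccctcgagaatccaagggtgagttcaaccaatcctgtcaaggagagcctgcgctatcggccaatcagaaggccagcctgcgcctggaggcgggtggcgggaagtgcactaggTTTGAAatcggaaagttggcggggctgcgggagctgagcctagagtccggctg
MCM7: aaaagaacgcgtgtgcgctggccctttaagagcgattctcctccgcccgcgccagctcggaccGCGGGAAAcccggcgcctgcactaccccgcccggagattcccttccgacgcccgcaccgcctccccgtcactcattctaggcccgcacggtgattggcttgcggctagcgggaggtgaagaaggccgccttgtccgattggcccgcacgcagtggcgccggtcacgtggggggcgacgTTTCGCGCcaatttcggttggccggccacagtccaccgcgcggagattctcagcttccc
TYMS: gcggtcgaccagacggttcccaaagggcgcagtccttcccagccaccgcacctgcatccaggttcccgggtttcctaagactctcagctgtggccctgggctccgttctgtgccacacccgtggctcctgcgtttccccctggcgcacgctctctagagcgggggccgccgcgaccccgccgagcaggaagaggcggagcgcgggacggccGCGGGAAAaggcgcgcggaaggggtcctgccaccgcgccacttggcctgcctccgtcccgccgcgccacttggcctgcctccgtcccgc
ASNS: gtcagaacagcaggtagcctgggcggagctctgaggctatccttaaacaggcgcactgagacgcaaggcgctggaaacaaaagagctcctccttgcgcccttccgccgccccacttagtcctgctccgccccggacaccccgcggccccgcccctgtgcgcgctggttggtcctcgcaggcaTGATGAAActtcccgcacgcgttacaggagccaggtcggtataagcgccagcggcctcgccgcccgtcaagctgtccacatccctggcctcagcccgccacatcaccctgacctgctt
ATF3: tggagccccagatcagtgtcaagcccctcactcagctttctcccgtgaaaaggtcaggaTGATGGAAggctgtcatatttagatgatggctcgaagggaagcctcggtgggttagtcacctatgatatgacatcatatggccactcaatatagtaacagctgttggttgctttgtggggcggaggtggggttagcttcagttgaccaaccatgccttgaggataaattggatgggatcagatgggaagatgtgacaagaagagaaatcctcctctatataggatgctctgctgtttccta

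Shares of promoters with a motif are given first for the whole window and then for its 250 bases before the start. TTTGAA stood in 32 of 59 (54.2%) of the promoters of mitotic kinase, kinetochore and kinesin genes, against 10.1% of all genes tested. Before the start alone the count was 19 of 59 (32.2%) against 8.8%, and for the kinetochore genes it went from 13 of 27 (48.1%) to 4 of 27 (14.8%). In the whole window it stood in 18.8% of promoters of genes at least 2-fold lower and in 11.4% of those at least 2-fold higher. An E2F site stood in 19 of 47 (40.4%) of the promoters of replication and deoxynucleotide genes and in 5.6% of all tested. It stood in 11.4% of promoters at least 2-fold lower and 3.9% of those at least 2-fold higher. Before the start alone 13 of 47 (27.7%) of the listed promoters held it, against 4.6%. By list, the E2F site stood in 17 of 37 replication and 2 of 10 deoxynucleotide promoters. Before the start alone these counts were 12 of 37 and 1 of 10. TGATGNAA stood in 15 of 61 (24.6%) of the promoters of stress, tRNA synthetase and amino acid genes against 1.8% of all tested, with 3.3% of the 2-fold higher and 1.0% of the 2-fold lower promoters. Before the start alone it was in 8 of 61 (13.1%) against 1.5%. Within that pool the ATF4 and CHOP list had 2 of 16 (12.5%) with either window, while the cytosolic tRNA synthetases went from 6 of 16 (37.5%) to 2 of 16 (12.5%) and the amino acid transporters from 3 of 15 to 0 of 15. The CCAAT box, which NF-Y binds, stood in 13 of 18 (72.2%) of the mitotic kinase list and 37.4% of all tested. It also stood in 10 of 13 (76.9%) of the promoters of cholesterol synthesis, a list with a median log2 fold change of -0.00269. The antioxidant element TGACNNNGC stood in 6 of 23 (26.1%) of the NRF2 list and 15.2% of all tested, and the sterol element TCACNCCAC in 0 of 13 cholesterol synthesis promoters and 1.0% of all tested. Both strands were searched and a base could belong to more than 1 motif. These lists were partly built from known targets of the same factors, and a match is a run of letters, not a measured binding site.

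Transcripts of the mitotic machinery fell throughout. All 25 measured mitotic kinases, cyclins and phosphatases were lower (35% of all genes were), 24 of them at least 2-fold. Their median log2 fold change was -1.73 (-1.80 to -1.34 over all settings tried). INCENP, the scaffold of the chromosomal passenger complex, read 8.90, 9.06, 9.05 and 8.99 on the control arrays and 6.56, 6.32, 6.45 and 6.55 on the MC2494 arrays. The groups lay well apart, a fall of 5.77-fold (log2 fold change -2.53 ± 0.06, SE; limma adjusted p = 6.56e-13). AURKB, the kinase of the same complex, read 11.39, 11.34, 11.49 and 11.43 on the control arrays and 9.10, 9.42, 9.03 and 9.03 on the MC2494 arrays. Its fall was 4.81-fold (log2 fold change -2.27 ± 0.08, SE; limma adjusted p = 1.03e-11), again with no overlap. The passenger subunit BIRC5, or survivin, was 4.66-fold lower. TPX2, which activates Aurora A on the spindle, was 4.61-fold lower. The smallest fall of the list was that of the phosphatase CDC25B, at 1.87-fold. In bulk RNA, less transcript in each cell and a smaller share of dividing cells cannot be told apart.

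Transcripts for the attachment of chromosomes to the spindle followed the same course. Of 32 measured kinetochore and checkpoint genes 3 rose, 28 fell and 1 did not pass the test. Their median was -1.10 (-1.14 to -0.84 over all settings tried). SPC25 and SPC24, partner subunits of the NDC80 complex, were 7.36-fold lower and 6.27-fold lower, SPC25 being detected on 1 of 4 MC2494 arrays. CENPA, the histone H3 variant that marks the centromere, was 4.80-fold lower, and its chaperone HJURP was 3.50-fold lower. The members that rose were MIS12 (0.23), NSL1 (0.36, with -0.36 and 0.13 on other probes) and CENPQ (0.47), of which MIS12 and NSL1 lost their call with median scaling. Of 15 kinesins 1 rose, 11 fell and 3 did not pass the test (median -1.15, -1.22 to -0.88 over all settings tried). KIF4A, a chromosome-bound motor, read 10.51, 10.51, 10.58 and 10.59 on the control arrays and 8.75, 8.55, 8.73 and 8.75 on the MC2494 arrays. This was a fall of 3.61-fold (log2 fold change -1.85 ± 0.06, SE; limma adjusted p = 4.12e-12) without overlap. The mitotic motors KIFC1 and KIF2C were 3.60-fold lower and 3.51-fold lower. KIF5B, which carries cargo along microtubules outside mitosis, was the kinesin that rose, by 0.55 on the log2 scale.

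Not all genes with a role in chromosome structure fell. Of 22 cohesin and condensin genes 6 rose, 15 fell and 1 did not pass the test (median -0.52, or -0.46 with an undetected member at its bound, -0.76 to -0.28 over all settings tried). The condensin subunit NCAPD2 was 4.32-fold lower, and separase, ESPL1, was 4.30-fold lower. Cohesin subunit STAG2 rose by 0.77 and its loader NIPBL by 0.72 on the log2 scale. ESCO1, which acetylates cohesin, read 5.79, 5.78, 5.56 and 5.21 on the control arrays and 6.89, 6.80, 6.88 and 6.70 on the MC2494 arrays. It was 2.35-fold higher (log2 fold change 1.23 ± 0.11, SE; limma adjusted p = 1.89e-07) and was detected on 3 of 4 control arrays. In the anaphase-promoting complex, 5 of 17 rose and 8 fell, but 2 of the rises, those of ANAPC4 (0.15) and ANAPC13 (0.29), turned sign with median scaling, and the ANAPC4 call was lost when any array other than MC2494 replicate 2 was left out. The other rises were ANAPC16, CDC16 (0.51) and ANAPC10 (0.39). Its activator CDC20 was 2.89-fold lower. Its core subunit ANAPC16 read 8.09, 7.96, 8.10 and 8.03 on the control arrays and 10.18, 10.06, 10.06 and 10.11 on the MC2494 arrays. The groups were far apart, with ANAPC16 4.15-fold higher (log2 fold change 2.05 ± 0.06, SE; limma adjusted p = 3.67e-12). Centrosome genes were divided as well, 6 higher and 16 lower of 30: TACC3, which stabilises spindle microtubules, was 3.21-fold lower, while PCM1, the scaffold of centriolar satellites, was 1.98-fold higher.

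Transcripts for the start of DNA synthesis were lower in most parts of that machinery. Of 41 licensing and fork genes 3 rose, 35 fell and 3 did not pass the test, 24 of the falls being at least 2-fold. Their median was -1.09 (-1.25 to -1.02 over all settings tried). ORC1, the subunit of the origin recognition complex that cycles with cell division, read 8.97, 8.95, 9.11 and 9.16 on the control arrays and 7.00, 6.76, 7.23 and 6.95 on the MC2494 arrays. It was 4.19-fold lower (log2 fold change -2.07 ± 0.09, SE; limma adjusted p = 6.15e-11), with no overlap. ORC3 in contrast rose by 0.41 on the log2 scale, RFC1, the large subunit of the clamp loader, rose by 0.44, and ORC5 (0.13, -0.23 on another probe) turned its sign with median scaling and lost its call with any array left out but control replicate 2 and MC2494 replicate 1. MCM7, of the replicative helicase, read 13.99, 14.07, 13.88 and 13.96 on the control arrays and 12.10, 12.15, 12.12 and 12.07 on the MC2494 arrays. Its fall was 3.64-fold (log2 fold change -1.86 ± 0.05, SE; limma adjusted p = 1.46e-12), and its other probes gave -2.55 and -0.91. CDC45, a further helicase subunit, was 3.76-fold lower, and DNA ligase 1, LIG1, was 3.39-fold lower. Of 11 genes of deoxynucleotide supply 4 rose, 7 fell and 0 did not pass the test. TYMS, which makes thymidylate and whose promoter is shown above, was 4.43-fold lower. The ribonucleotide reductase subunit RRM1 read 13.24, 13.11, 13.13 and 13.19 on the control arrays and 11.54, 11.57, 11.48 and 11.52 on the MC2494 arrays. This was a fall of 3.11-fold (log2 fold change -1.64 ± 0.05, SE; limma adjusted p = 6.71e-12) with wide separation, whereas RRM2B, its p53-responsive subunit for cells outside S phase, was 1.73-fold higher. CMPK1 (0.51) also rose, and SAMHD1 and DCK were called higher but were undetected in control, with signals too low to give a fold, and DCK lost its call with any array left out but control replicate 4 and MC2494 replicate 2.

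Among the regulators of the cycle, G1 cyclins and kinases fell in 8 of 10 cases (median -0.94, -1.25 to -0.82 over all settings tried). CDK6 (0.17) turned sign with median scaling and lost its call without control replicate 4 or MC2494 replicate 2 or 3. CCNE1, the E-type cyclin that drives entry into S phase, read 9.38, 9.33, 9.40 and 9.43 on the control arrays and 7.86, 7.81, 7.71 and 7.83 on the MC2494 arrays. It was 3.00-fold lower (log2 fold change -1.58 ± 0.05, SE; limma adjusted p = 5.06e-12). Its kinase CDK2 was 2.29-fold lower and the phosphatase that activates it, CDC25A, was 2.68-fold lower. CDKN1A, the gene of p21, read 8.83, 9.13, 8.88 and 9.07 on the control arrays and 11.24, 11.13, 11.07 and 11.02 on the MC2494 arrays. The rise of 4.39-fold (log2 fold change 2.14 ± 0.08, SE; limma adjusted p = 1.54e-11) was on the brightest probe, and another probe gave 0.24. CDKN2B, which inhibits CDK4, rose by 0.77 on the log2 scale, and CDKN2A fell by 1.10. Of 16 E2F, RB and DREAM genes 3 rose, 9 fell and 4 did not pass the test. FOXM1, the mitotic forkhead factor, read 9.59, 9.68, 9.64 and 9.67 on the control arrays and 7.47, 7.33, 7.22 and 7.40 on the MC2494 arrays, a fall of 4.89-fold (log2 fold change -2.29 ± 0.06, SE; limma adjusted p = 5.66e-13) without overlap. E2F8 and E2F2 were 3.39-fold lower and 2.79-fold lower. The retinoblastoma gene RB1 was 1.49-fold higher, and LIN9, a MuvB subunit, was 1.36-fold higher, while E2F6 (0.17) turned sign with median scaling.

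Changes in DNA repair genes were not uniform. Recombination and Fanconi genes fell in 20 of 22 cases (median -0.90, -0.95 to -0.70 over all settings tried), PALB2 (0.61) and XRCC2 (0.39) being the rises. Mismatch and excision repair genes split, 6 higher and 10 lower of 22 (median -0.08, -0.25 to -0.0545 over all settings tried). ERCC1, of the nuclease that cuts beside bulky lesions, was 2.16-fold higher, and the ligase LIG3 was 2.60-fold lower. Of 15 damage signalling genes 4 rose, 9 fell and 2 did not pass the test. RAD50, of the complex that senses broken DNA ends, read 5.76, 5.44, 5.57 and 5.88 on the control arrays and 7.30, 7.29, 7.38 and 7.32 on the MC2494 arrays. RAD50 was 3.16-fold higher (log2 fold change 1.66 ± 0.08, SE; limma adjusted p = 3.38e-10), with its partner NBN 2.42-fold higher and the kinase ATM 1.82-fold higher. MRE11, of the same complex, rose by 0.23 on its brightest probe and gave -0.02 and -0.34 on others. The checkpoint kinase CHEK1 was 2.10-fold lower, and ATRIP, partner of the kinase ATR, was 2.24-fold lower.

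Genes of DNA methylation and of histone marks moved both ways. UHRF1, which brings DNMT1 to newly copied DNA, read 7.63, 7.99, 7.79 and 7.46 on the control arrays and 5.77, 5.67, 6.06 and 5.61 on the MC2494 arrays. It was 3.84-fold lower (log2 fold change -1.94 ± 0.13, SE; limma adjusted p = 7.68e-09). DNMT1 and the methyltransferase DNMT3B were 1.98-fold lower and 2.85-fold lower, while DNMT3A (-0.08, adjusted p = 0.584) did not pass and MBD4 (0.48) rose. EZH2, the catalytic subunit of Polycomb repressive complex 2, read 9.55, 9.60, 9.64 and 9.63 on the control arrays and 7.76, 7.68, 7.87 and 7.86 on the MC2494 arrays. Its fall was 3.52-fold (log2 fold change -1.82 ± 0.06, SE; limma adjusted p = 6.71e-12), whereas SUZ12 of the same complex was 1.71-fold higher. Of 40 histone methyltransferases and demethylases 10 rose, 21 fell and 9 did not pass the test (median -0.24, -0.29 to -0.16 over all settings tried). SUV39H1, which methylates histone H3 in heterochromatin, was 2.27-fold lower, and SMYD3 was 2.10-fold higher. Classical deacetylases and corepressors fell in 14 of 24 cases, the corepressor SIN3A being 2.14-fold lower and SAP18 2.99-fold higher. The other rises there were RCOR3 (0.84), RCOR2 (at least 1.37-fold), HDAC10 (at least 1.13-fold) and SIN3B (0.35), where RCOR2 and HDAC10 were undetected in control. Of 17 histone genes 5 rose, 10 fell and 2 did not pass the test. H2AX was 2.35-fold lower and H2AZ1 1.95-fold lower, and H4C8 was 3.75-fold higher, a value to be read with care because H4 genes are nearly identical. The other rises were H2BC12 (1.03), H2AC18 (0.94), H2AC6 (0.79) and H2BC21 (at least 1.39-fold), also members of families of near-identical copies.

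Of the sirtuin genes themselves, SIRT2, a mainly cytoplasmic deacetylase, read 6.76, 6.83, 6.83 and 6.63 on the control arrays and 7.82, 7.88, 7.86 and 7.78 on the MC2494 arrays. It was 2.11-fold higher (log2 fold change 1.08 ± 0.06, SE; limma adjusted p = 1.95e-09), without overlap. SIRT1, a mainly nuclear member, read 7.87, 7.78, 7.69 and 7.71 on the control arrays and 8.77, 8.78, 8.81 and 8.78 on the MC2494 arrays. Its rise was 2.04-fold (log2 fold change 1.03 ± 0.07, SE; limma adjusted p = 4.44e-09). SIRT4 and SIRT5, both mitochondrial, had log2 fold changes of 0.39 and 0.59, the latter with 0.79 and 1.72 on other probes. SIRT6 had -0.28, a call that did not hold when control replicate 3 or 4 or MC2494 replicate 1 was left out. SIRT3 was not detected on any array, and SIRT7 had no probe in the annotated table. Genes that make or use NAD, the co-substrate of sirtuins, rose in 11 and fell in 5 of 20 cases. NMRK1, which phosphorylates nicotinamide riboside, was 2.18-fold higher, and PARP14 was 2.89-fold higher. NAMPT, the rate-limiting enzyme of NAD salvage, fell by 0.45 on the log2 scale, and the NAD glycohydrolase CD38 was 2.31-fold lower, detected on 3 of 4 MC2494 arrays. PARP1 (-0.55), NAPRT (-0.31) and PARP2 (-0.28) fell as well.

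**Figure D3:**
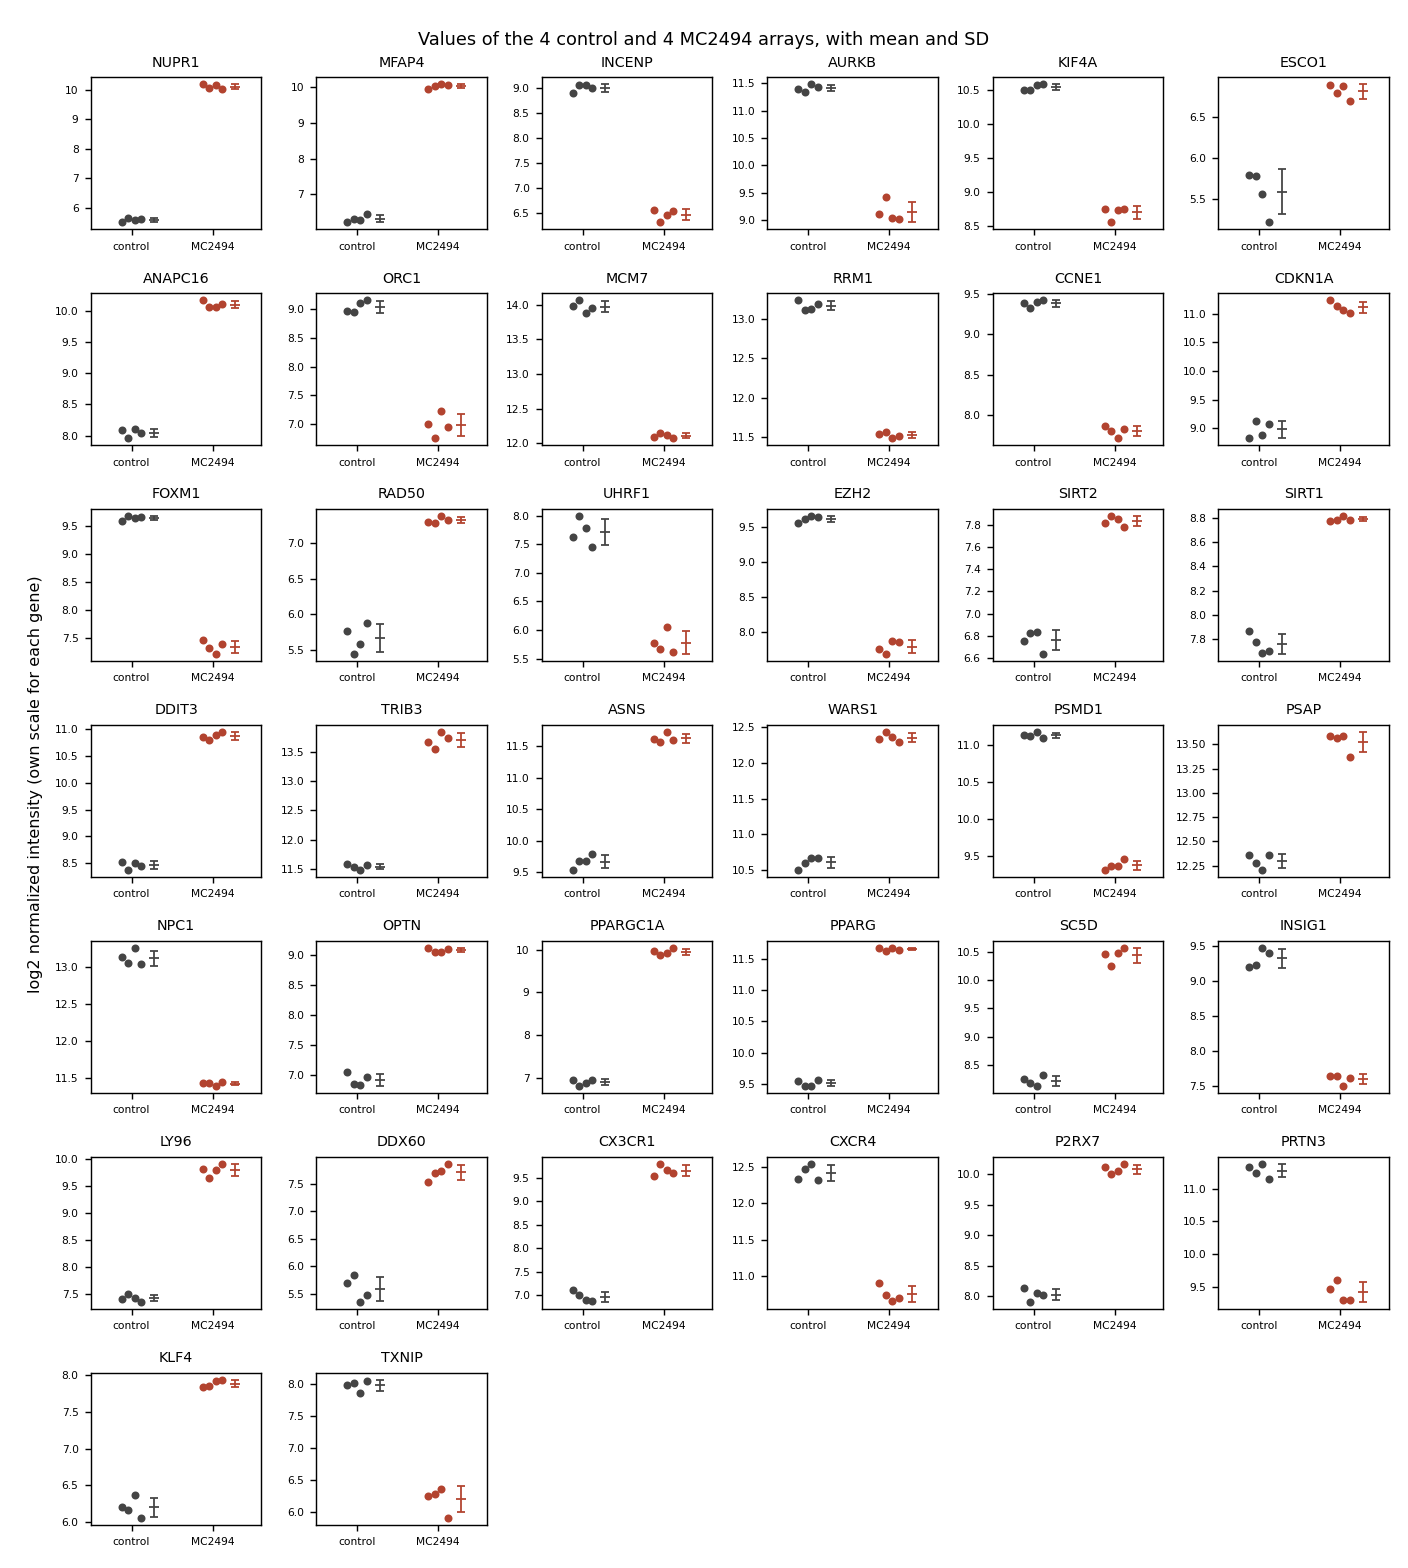
Log2 normalized intensity of each gene given array by array in the text, for 4 control (grey) and 4 MC2494 (red) arrays. Points are arrays, bars the mean and SD, and each panel has its own vertical scale. In every panel the 4 MC2494 points lie all above or all below the 4 control points. Most of these genes were chosen for large changes, so that separation follows largely from the choice. Among all genes tested 65.7% showed it.

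Genes of the stress programme rose as a group. Of 19 measured ATF4 and CHOP regulators and targets 18 rose and none fell (37.5% of all genes rose), 13 of them at least 2-fold. Their median was 1.38 (1.14 to 1.40 over all settings tried). DDIT3, the gene of CHOP, read 8.53, 8.37, 8.51 and 8.44 on the control arrays and 10.86, 10.79, 10.90 and 10.95 on the MC2494 arrays. It was 5.33-fold higher (log2 fold change 2.41 ± 0.06, SE; limma adjusted p = 3.44e-13). TRIB3, a pseudokinase that CHOP induces and that damps its activity, read 11.59, 11.53, 11.49 and 11.58 on the control arrays and 13.67, 13.54, 13.83 and 13.73 on the MC2494 arrays. Its rise was 4.43-fold (log2 fold change 2.15 ± 0.07, SE; limma adjusted p = 5.06e-12), with wide separation. ATF4, which is controlled mainly in translation, rose by 0.49 on the log2 scale. CHAC1, a glutathione-degrading target, did not pass (-0.20, adjusted p = 0.146).

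Amino acid genes followed in part. ASNS, which makes asparagine, read 9.54, 9.67, 9.68 and 9.79 on the control arrays and 11.61, 11.57, 11.73 and 11.59 on the MC2494 arrays. It was 3.87-fold higher (log2 fold change 1.95 ± 0.06, SE; limma adjusted p = 2.95e-12). PSAT1 of serine synthesis and CTH, which makes cysteine, were 2.32-fold higher and 2.19-fold higher. MTHFD1 and SHMT1, the cytosolic enzymes that feed thymidylate and purine synthesis, were 2.89-fold lower and 1.75-fold lower, with -0.63 and 0.25 on other SHMT1 probes. Enzymes that load tRNA split by compartment: of 19 cytosolic synthetases 13 rose, 6 fell and 0 did not pass the test (median 0.54, 0.28 with median scaling), and of 15 mitochondrial ones 2 rose, 9 fell and 4 did not pass the test (median -0.29, -0.49 with median scaling). The mitochondrial rises were RARS2 (0.34) and HARS2 (0.31), of which HARS2 lost its call with median scaling. The difference between the compartments was not tested. WARS1, the tryptophanyl enzyme, which interferon also induces, read 10.50, 10.61, 10.67 and 10.67 on the control arrays and 12.34, 12.43, 12.36 and 12.29 on the MC2494 arrays. WARS1 was 3.35-fold higher (log2 fold change 1.75 ± 0.05, SE; limma adjusted p = 3.42e-12), and AARS1 was 2.19-fold higher. VARS1 and both subunits of the phenylalanyl enzyme, FARSA and FARSB, were 1.99-fold lower, 1.79-fold lower and 1.90-fold lower. Among mTORC1 regulators 16 of 27 rose and 3 fell, RPTOR (-0.73), NPRL3 (-0.65) and MTOR (-0.30), RPTOR being detected on 1 of 4 MC2494 arrays. DDIT4 and SESN2, both brakes on the kinase, were 7.39-fold higher and 2.12-fold higher.

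Protein folding genes of the endoplasmic reticulum did not move one way, with 9 higher and 10 lower of 23 (median -0.05, -0.30 with median scaling). The co-chaperones DNAJB9 and DNAJC10 were 2.33-fold higher and 2.27-fold higher. SDF2L1 was 2.47-fold lower and the secreted factors MANF and CRELD2 were 1.95-fold lower and 1.88-fold lower. Antioxidant genes rose in 18 of 31 cases and fell in 8 (median 0.35, 0.0971 to 0.38 over all settings tried). Haem oxygenase HMOX1 was 3.32-fold higher, IDH1, which makes NADPH, 2.45-fold higher, and GCLM, of glutathione synthesis, 2.01-fold higher. Of iron genes 13 of 22 rose, among them the transferrin receptor TFRC, 2.20-fold higher, and NFS1 (-0.58), SLC25A39 (-0.34), GLRX5 (-0.32), PPOX (-0.28) and STEAP3 (-0.28) fell.

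Genes for making and exporting RNA and protein fell in several lists, but most cytosolic ribosomal protein genes rose. Ribosome biogenesis genes fell in 35 of 44 cases (median -0.53, -0.80 with median scaling), with NOLC1, a nucleolar phosphoprotein, 2.92-fold lower. The rises there were NOP58 (0.61), LTV1 (0.18) and GNL2 (0.18), and LTV1 and GNL2 turned sign with median scaling. Splicing factors fell in 46 of 61 (median -0.47, -0.71 to -0.44 over all settings tried), SNRPA of the U1 particle being 3.11-fold lower. In that list CLK4, a kinase of splicing factors, was 2.54-fold higher. Nuclear pore and transport genes fell in 36 of 51 (median -0.46), the scaffold nucleoporin NUP155 3.14-fold lower and the importin KPNA2 2.65-fold lower. Purine and pyrimidine enzymes fell in 17 of 21 (median -0.54, -0.87 with median scaling). DHODH, the mitochondrial enzyme of pyrimidine synthesis, was 2.85-fold lower, and PFAS, of purine synthesis, 2.61-fold lower. CTPS2 (0.37) was the one enzyme of the list that rose. Mitochondrial ribosomal proteins fell in 44 of 71 (median -0.31, -0.52 with median scaling), while cytosolic ones rose in 36 of 54 (median 0.35, 0.11 with median scaling). The 5 cytosolic ones that fell include the widest changes of the list, with RPS7 3.62-fold lower, RPL29 2.98-fold lower and RPS21 2.52-fold lower, besides RPL6 (-0.93) and RPL34 (-0.20). RPL34 lost its call with any array left out but MC2494 replicates 1, 3 and 4. These counts rest on each gene's brightest probe. Some cytosolic ribosomal protein genes had probes called in opposite directions: RPS24 (0.47 and -2.31), RPL14 (1.07 and -0.47), RPL13 (0.24 and -0.93) and RPL36 (0.48 and -0.47). Probes of cytosolic ribosomal protein genes may also read their many processed pseudogenes.

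Genes for the breakdown of protein moved in 2 directions. Proteasome genes fell in 30 of 39 cases and rose in 5 (median -0.29, -0.59 with median scaling). PSMD1, a scaffold subunit of the regulatory particle, read 11.14, 11.12, 11.18 and 11.11 on the control arrays and 9.30, 9.35, 9.36 and 9.45 on the MC2494 arrays. Its fall was 3.42-fold (log2 fold change -1.77 ± 0.06, SE; limma adjusted p = 7.58e-12). The immunoproteasome subunits PSMB9 and PSMB10 rose by 0.43 and 0.67 on the log2 scale. PSME1 (0.23), PSME2 (0.15) and PSMD10 (0.35) also rose, but with median scaling the sign of PSME1 and PSME2 turned and PSMD10 lost its call. The PSME2 call also went when control replicate 1 or 4 or MC2494 replicate 1, 3 or 4 was left out. Lysosomal genes rose in 25 of 38 cases and fell in 7 (median 0.35, 0.21 with median scaling). PSAP, precursor of the saposins that help to degrade sphingolipids, read 12.36, 12.27, 12.21 and 12.36 on the control arrays and 13.58, 13.56, 13.58 and 13.37 on the MC2494 arrays. It was 2.34-fold higher (log2 fold change 1.22 ± 0.06, SE; limma adjusted p = 4.57e-10). The membrane proteins SCARB2 and CD68 were 2.63-fold higher and 2.27-fold higher. NPC1, which exports cholesterol from the lysosome, read 13.13, 13.05, 13.25 and 13.03 on the control arrays and 11.44, 11.44, 11.40 and 11.46 on the MC2494 arrays. It went the other way, 3.22-fold lower (log2 fold change -1.68 ± 0.06, SE; limma adjusted p = 6.36e-12). The vacuolar proton pump rose in 11 of 17 subunits (median 0.32, 0.03 with median scaling), and its catalytic subunit ATP6V1A was 1.76-fold higher. ATP6V0C (-0.37), TCIRG1 (-0.32) and ATP6V0B (-0.20) fell. Autophagy genes rose in 19 and fell in 7 of 37 cases (median 0.27, 0.12 to 0.34 over all settings tried). OPTN, a receptor that delivers mitochondria and bacteria to autophagosomes, read 7.04, 6.84, 6.82 and 6.96 on the control arrays and 9.13, 9.06, 9.06 and 9.10 on the MC2494 arrays. It was 4.50-fold higher (log2 fold change 2.17 ± 0.06, SE; limma adjusted p = 2.60e-12). GABARAPL1, of the family that coats autophagosomes, was 2.87-fold higher, and ATG7, the enzyme that starts the conjugation of that family, was 2.33-fold lower.

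In lipid metabolism single genes moved far while most lists stayed near the median of all genes. The largest change in these lists was that of PLIN2, a lipid droplet coat gene, 9.79-fold higher. PPARGC1A, coactivator of mitochondrial and oxidative genes, read 6.96, 6.81, 6.87 and 6.95 on the control arrays and 9.98, 9.87, 9.91 and 10.04 on the MC2494 arrays. It was 8.29-fold higher (log2 fold change 3.05 ± 0.06, SE; limma adjusted p = 4.79e-14). PPARG, the nuclear receptor of fat storage, read 9.55, 9.47, 9.47 and 9.57 on the control arrays and 11.66, 11.63, 11.67 and 11.64 on the MC2494 arrays. Its rise was 4.39-fold (log2 fold change 2.13 ± 0.05, SE; limma adjusted p = 1.69e-13), and the groups lay apart. Their list, PPAR and RXR receptors with coactivators, had 9 of 13 genes higher and PPARGC1B (-0.64) lower, and CREB3L3, undetected in control, was at least 2.32-fold higher. The oxidative lists that this coactivator is known for had medians of 0.09 for fatty acid oxidation, -0.00260 for the tricarboxylic acid cycle and 0.08 for complex I. With median scaling these were 0.0466, -0.17 and -0.19, so that the sign of complex I turned. SLC25A20, the carnitine carrier, was 2.57-fold higher, and ACADM, of medium-chain oxidation, 2.09-fold higher. In cholesterol synthesis 5 of 15 rose and 2 fell, EBP (-0.55) and NSDHL (-0.24). SC5D, a desaturase late in that pathway, read 8.25, 8.18, 8.13 and 8.33 on the control arrays and 10.46, 10.25, 10.48 and 10.56 on the MC2494 arrays. SC5D was 4.64-fold higher (log2 fold change 2.21 ± 0.07, SE; limma adjusted p = 4.12e-12), and HMGCS1, early in the pathway, 1.83-fold higher. INSIG1, which holds the sterol sensor in the endoplasmic reticulum, read 9.20, 9.22, 9.47 and 9.39 on the control arrays and 7.64, 7.64, 7.50 and 7.61 on the MC2494 arrays. It was 3.30-fold lower (log2 fold change -1.72 ± 0.07, SE; limma adjusted p = 4.47e-11), while INSIG2 was 1.65-fold higher. The fatty acid scavenger receptor CD36 was 2.75-fold lower, and SPHK1, which makes sphingosine 1-phosphate, was 3.07-fold lower.

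**Figure D4:**
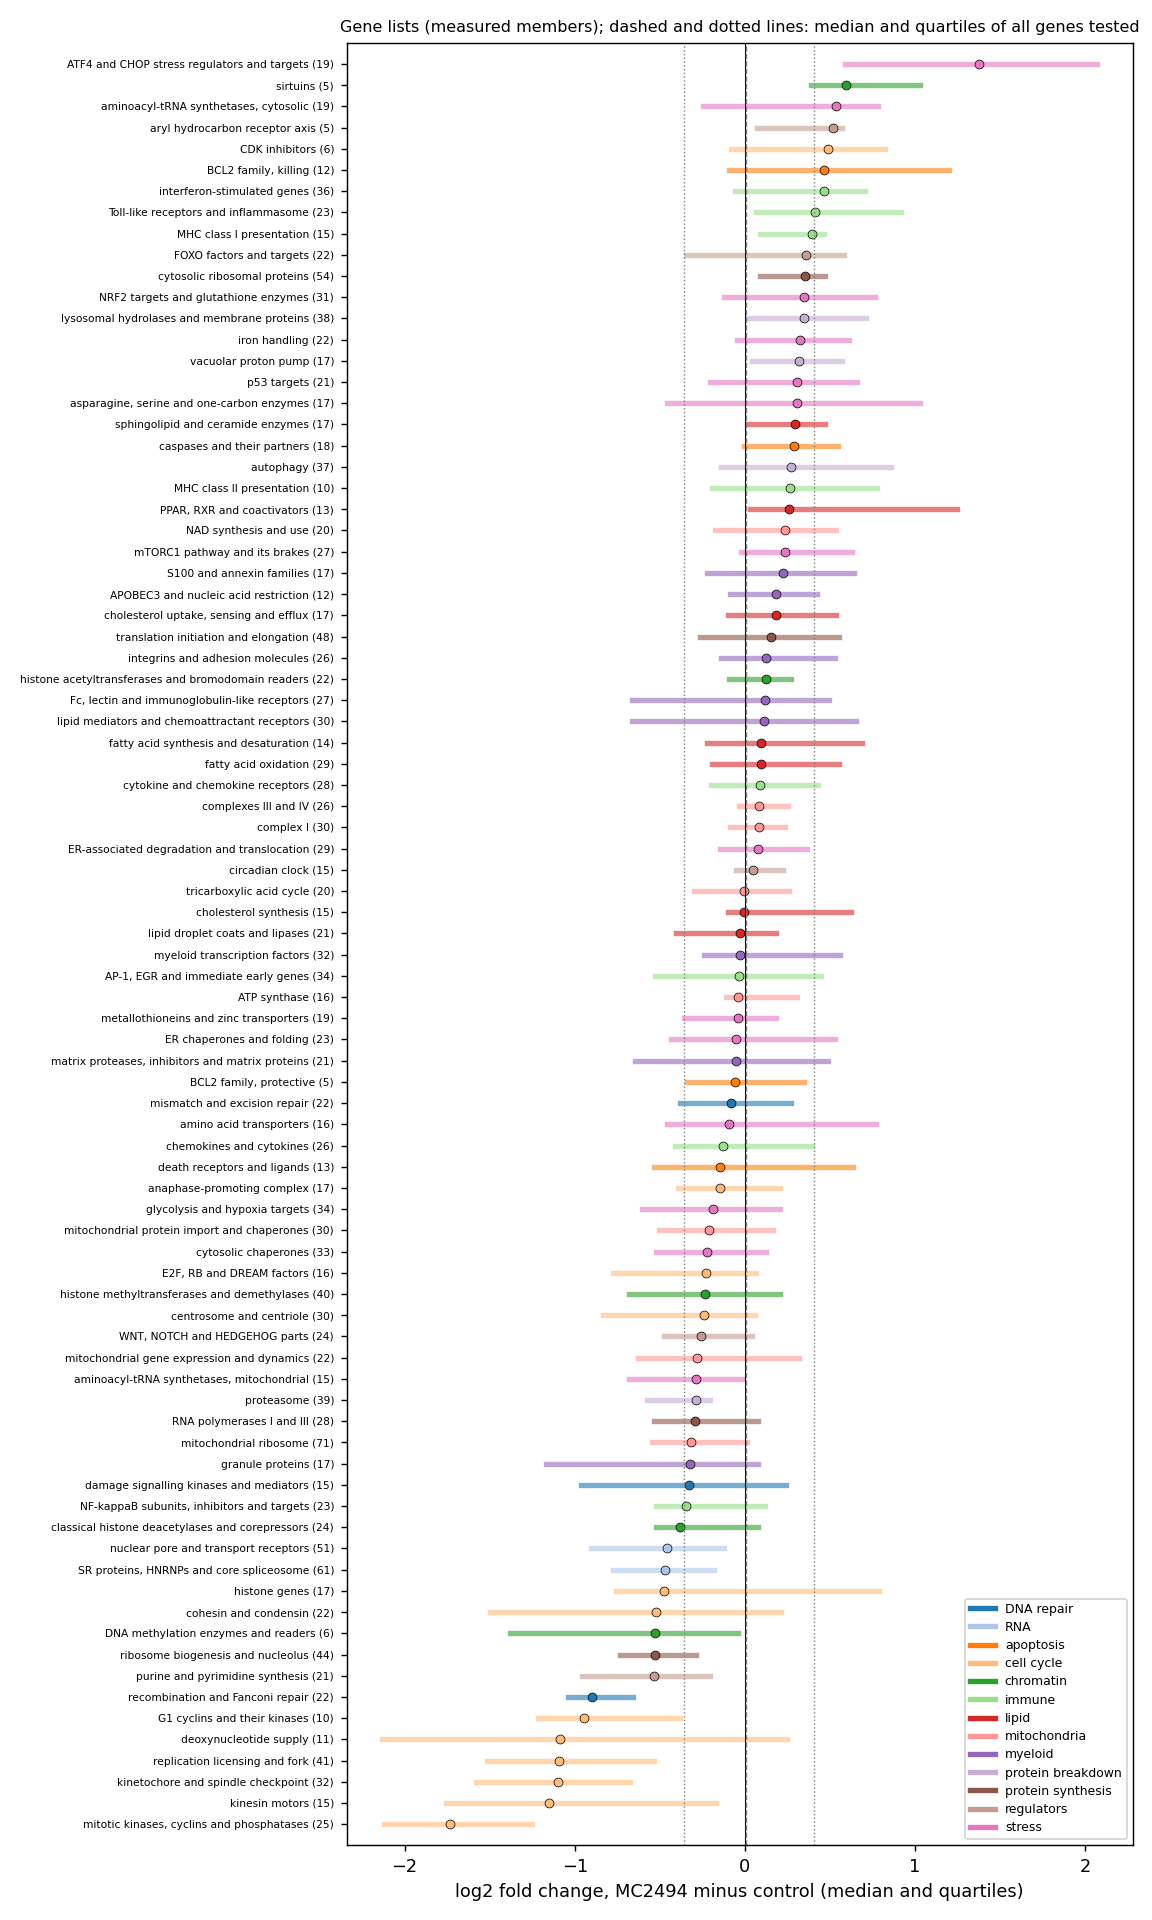
Median (circle) and quartiles (bar) of the log2 fold change, MC2494 minus control, for each gene list with at least 5 measured members, whose number stands in brackets. Lists run from the mitotic kinases at -1.73 to the ATF4 and CHOP list at 1.38, and the dashed line is the median of all genes, 0.01.

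Innate sensing held several large rises. Of 23 Toll-like receptor and inflammasome genes 15 rose, 5 fell and 3 did not pass the test (median 0.41, 0.12 to 0.43 over all settings tried). LY96, the MD-2 protein that binds endotoxin with TLR4, read 7.41, 7.49, 7.42 and 7.35 on the control arrays and 9.82, 9.66, 9.81 and 9.92 on the MC2494 arrays. It was 5.22-fold higher (log2 fold change 2.38 ± 0.06, SE; limma adjusted p = 6.56e-13). TLR5, the flagellin receptor, was 3.75-fold higher, CASP1, the inflammasome protease, 2.39-fold higher, and NLRC4, undetected in control, at least 2.78-fold higher. IRAK3, which restrains this signalling, was 2.14-fold lower, and the other falls were MYD88 (-0.21), CD14 (-0.18), NLRP3 (-0.15) and TICAM2 (-0.15). NLRP3 lost its call without control replicate 2, 3 or 4 or MC2494 replicate 2, and TICAM2 without control replicate 3 or 4 or MC2494 replicate 2 or 3. Of 36 interferon-stimulated genes 20 rose, 5 fell and 11 did not pass the test (median 0.46, or 0.35 with undetected members at their bound, 0.13 to 0.53 over all settings tried). DDX60, a helicase, read 5.70, 5.83, 5.35 and 5.47 on the control arrays and 7.53, 7.70, 7.74 and 7.87 on the MC2494 arrays, which put all MC2494 arrays above the controls. Its rise was 4.35-fold (log2 fold change 2.12 ± 0.11, SE; limma adjusted p = 6.42e-10). The DNA sensor IFI16 and the RNA sensor IFIH1 were 3.73-fold higher and 2.55-fold higher. The members that fell were MX2 (-0.47), IFITM2 (-0.43), HERC5 (-0.33), IFIT2 (-0.30) and CMPK2 (-0.30), most of them standard interferon targets. CMPK2 lost its call when control replicate 1 or 2 or MC2494 replicate 2, 3 or 4 was left out. Of 10 class II presentation genes 6 rose, 3 fell and 1 did not pass the test, and their median of 0.27 turned sign with median scaling, to -0.0299. HLA-DMA and HLA-DMB, which load peptide on class II molecules, were 1.86-fold higher and 2.02-fold higher. The falls were CIITA (at least 1.18-fold), RFXAP (-0.38) and HLA-DRB1 (-0.24), CIITA being the class II transactivator, undetected in MC2494, and RFXAP losing its call without control replicate 3.

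Cytokine and receptor genes were divided. CX3CR1, the fractalkine receptor of patrolling monocytes, read 7.11, 7.00, 6.89 and 6.87 on the control arrays and 9.54, 9.79, 9.66 and 9.60 on the MC2494 arrays. It was 6.42-fold higher (log2 fold change 2.68 ± 0.09, SE; limma adjusted p = 4.60e-12). CXCR4, which retains cells in the marrow, read 12.33, 12.48, 12.54 and 12.32 on the control arrays and 10.91, 10.74, 10.67 and 10.70 on the MC2494 arrays. It was 3.16-fold lower (log2 fold change -1.66 ± 0.07, SE; limma adjusted p = 6.92e-11). The interferon receptor IFNAR1 was 2.47-fold higher. Among ligands, VEGFA was 3.41-fold higher and progranulin, GRN, 2.51-fold higher, while CCL2, which attracts monocytes, was 4.28-fold lower. P2RX7, the ATP-gated channel, read 8.13, 7.90, 8.05 and 8.02 on the control arrays and 10.12, 10.00, 10.05 and 10.17 on the MC2494 arrays. The channel gene was 4.17-fold higher (log2 fold change 2.06 ± 0.06, SE; limma adjusted p = 2.94e-12). The complement receptor C5AR1 was 3.14-fold higher, and the formyl peptide receptor FPR1, undetected in control, at least 3.13-fold higher. GPR84 and GPR183, receptors for fatty acids and oxysterols, were 4.91-fold lower and 3.46-fold lower.

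Markers of myeloid stage did not shift as one. Granule protein genes fell in 11 of 17 cases and rose in 4 (median -0.33, -0.60 to -0.13 over all settings tried). PRTN3, the primary granule protease proteinase 3, read 11.33, 11.24, 11.37 and 11.14 on the control arrays and 9.47, 9.61, 9.30 and 9.30 on the MC2494 arrays. It was 3.61-fold lower (log2 fold change -1.85 ± 0.07, SE; limma adjusted p = 3.51e-11). The members that rose were BPI (0.24), PRG2 (0.55), CAMP, 2.56-fold higher, and complement factor D, CFD, 2.72-fold higher. The BPI call was lost with a trended, robust variance and without MC2494 replicate 1. KLF4, a factor of monocyte differentiation, read 6.20, 6.16, 6.38 and 6.06 on the control arrays and 7.84, 7.86, 7.92 and 7.94 on the MC2494 arrays. KLF4 was 3.22-fold higher (log2 fold change 1.69 ± 0.09, SE; limma adjusted p = 6.86e-10). MXD1, an antagonist of MYC, was 2.95-fold higher, and MYC itself fell by 0.42 on the log2 scale. Integrin ITGAL and the tetraspanin CD81 were 3.26-fold higher and 3.38-fold higher, and ITGA4 was 2.04-fold lower.

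Genes of cell death included members with opposed roles. The BH3-only genes PMAIP1 and BMF were 2.70-fold higher and 2.35-fold higher, BMF being detected on 2 of 4 control arrays, while BCL2L11, the gene of BIM, was 2.96-fold lower. BNIP3L, a mitophagy receptor undetected in control, was at least 2.67-fold higher. The inhibitor of apoptosis BIRC2 was 2.91-fold higher. TXNIP, a FOXO and glucose-responsive inhibitor of thioredoxin, read 7.98, 8.02, 7.85 and 8.05 on the control arrays and 6.25, 6.28, 6.36 and 5.90 on the MC2494 arrays. It was 3.43-fold lower (log2 fold change -1.78 ± 0.10, SE; limma adjusted p = 7.39e-10). Of 21 genes listed as p53 targets 11 rose, 6 fell and 4 did not pass the test (median 0.31, 0.0434 to 0.36 over all settings tried). MDM2, the ligase of p53, was at -0.26, a fall not called without control replicate 3 or 4 or MC2494 replicate 1 or 4. The p53 status of these cells and p53 activity were not examined, so the list does not tell whether p53 acted. In glycolysis and the hypoxia response 18 of 34 genes fell and 10 rose, PGK1 and PKM, enzymes of the pathway's second stage, being 1.71-fold lower and 1.64-fold lower.

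Probes of 1 gene did not always move together. Of 1579 genes with more than 1 kept probe, 135 had probes called in opposite directions. CASP4 rose by 1.13 on its brightest probe and gave -0.85 on another. MITF gave -1.04 and 0.83, and RAB27A gave 1.46, -0.42 and 0.63. Sequences of the probes were not used here, so the transcripts they read were not told apart. ABCF2 gave -0.55, -1.88 and 2.54 on its 3 probes, the last not detected on any control array.

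**Figure D5:**
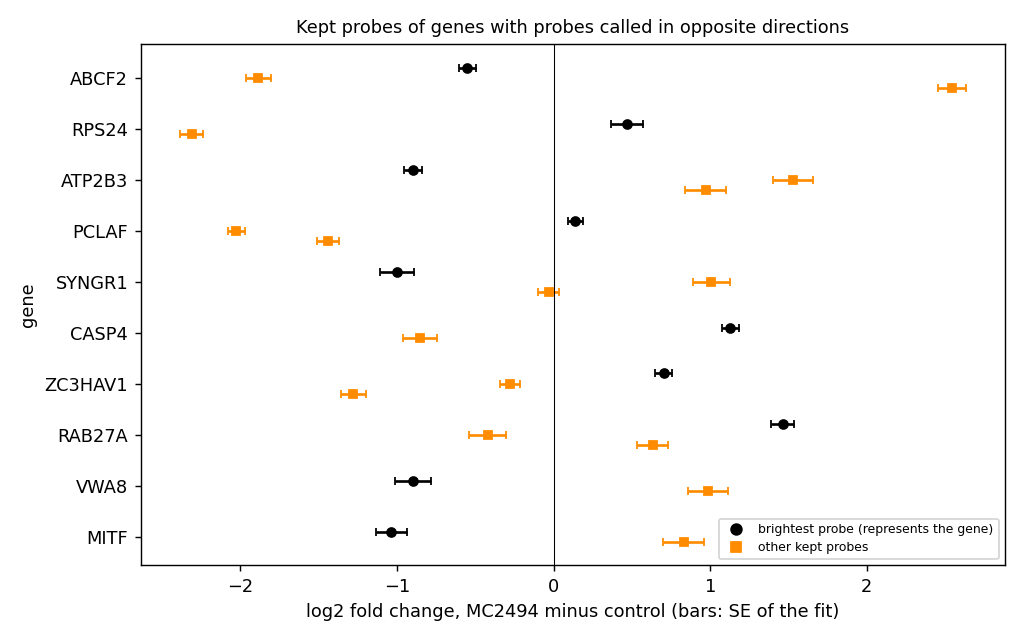
Log2 fold change of MC2494 against control (horizontal axis, bars SE of the fit) for each kept probe of the 10 genes whose oppositely called probes lay furthest apart. The brightest probe is black and the others orange, and in each gene at least 1 probe lies on each side of 0.

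The direct test of MC2494 against EX527 called 62% of genes. Neither compound's dose is stated, so the doses may not match. Both compounds were compared with the same 4 control arrays, so their changes against control share those values. AURKB gave -2.27 against -0.36 for MC2494 and EX527 against control, and the direct difference was -1.91 ± 0.08, SE; limma adjusted p = 9.91e-11. For ORC1 the changes were -2.07 against -0.62, differing by -1.45 ± 0.09, SE; limma adjusted p = 4.29e-09. DDIT3 changed by 2.41 against 1.44, a difference of 0.97 ± 0.06, SE; limma adjusted p = 2.69e-09. ASNS, in contrast, gave 1.95 against 2.14, so it was the higher in EX527 by a difference of -0.19 ± 0.06 (SE, limma adjusted p = 0.0137). PLIN2 was also the higher in EX527, with 3.29 against 3.56 (difference -0.27, limma adjusted p = 0.000584). PPARG gave 2.13 against 0.93 (difference 1.21 ± 0.05, SE; limma adjusted p = 3.75e-11), and DDX60 gave 2.12 against 0.79 (difference 1.33 ± 0.11, SE; limma adjusted p = 1.56e-07). Not every gene moved the same way under both compounds. MMP1 gave -3.17 against 1.62, CX3CR1 2.68 against -0.63 and CD36 -1.46 against 0.70. Their direct differences were -4.78, 3.31 and -2.16 (limma adjusted p = 7.60e-13, 3.05e-12 and 8.42e-13). The list of mitotic kinases had medians of -1.73 and -0.30, the ATF4 and CHOP list 1.38 and 0.99, and cytosolic tRNA synthetases 0.54 and 0.50. Cohesin and condensin genes had medians of opposite sign, -0.52 and 0.56. All 25 mitotic genes and 12 of the 19 stress genes differed directly between the compounds, the stress share being near the 62% of all genes.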

How the data were processed

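Gene expression in U937 was measured on 12 Illumina bead arrays, per the labels. The main deposited table holds linear bead intensity, which its values show to be unnormalized, and a detection p-value per probe, per the file headers. A second deposited table holds the authors' log2 values, made with limma per the submitters' processing notes and used only as an alternative. Background correction and quantile normalization used limma 3.58.1 (neqc, offset 16) under R 4.3.3. Of 24526 probes 21834 had 1 symbol, updated through RefSeq, and 2692 had none. The linear model (lmFit, eBayes) had 1 mean per group and used every array. A gene detected on no array of a group has its fold written "at least", with the dim group set at its own signal or, if higher, each array's lowest detected signal. Members and lists were chosen with earlier results of these data known. The text names genes among the 25 largest rises and falls, the 4 most changed of each list with at least 3 called, exceptions of 5 or fewer, the largest bounds, the widest disagreeing probes and the sirtuins. Further list members were chosen after their values were seen. On simulated data the fit was tested with known changes. Replicate numbers recur across groups, but deviations of same-numbered arrays correlated at 0.055 to 0.125, so they were not treated as pairs. The number of arrays limits precision. Alternatives changed background, scaling, filter, probe choice, variance model, threshold, arrays and the block.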

Additional observations from a re-analysis of the deposited data

Results flagged for a closer look

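On KIF4A, MC2494 replicate 2 read 8.55 and stood apart from the 3 other arrays of its group. On PSAP, MC2494 replicate 4 read 13.4 and stood apart in the same way. A sample counts as apart when its gap to the nearest of the others, divided by the group's range, exceeds Dixon's critical value. Of 78 groups of 4 looked at, 2 met that rule, and chance alone meets it in about 1 of 20 groups.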

How the results depend on the processing

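The number of genes called, 7222, ranged from 6996 to 7116 with 1 array left out. It was 7131 with the EX527 arrays left out of the fit. The number at least 2-fold, 1217, ranged from 1201 to 1251 with 1 array left out, and was 773 with no background correction and 778 with the authors' deposited log2 values. Median raw signal differed by -3.58 between MC2494 and control (exact permutation p = 0.2), where the mean had passed. Genes with oppositely called probes numbered 83 at adjusted p under 0.01. ORC5 gave -0.15 with median scaling, -0.15 with no scaling and -0.051 with the mean of its probes. PSME1 gave -0.10 and -0.10, and PSME2 -0.12 and -0.13, with median and no scaling. ANAPC4, ANAPC13, CDK6 and E2F6 gave -0.0771, -0.0337, -0.0278 and -0.0949 with median scaling and -0.0809, -0.0375, -0.0316 and -0.0987 with none. LTV1 and GNL2 gave -0.0853 and -0.14 with median scaling and -0.0891 and -0.14 with none. MRE11 gave -0.0426 and ABCF2 0.036 with the mean of their probes. TTTGAA fell from 54.2% to 32.2% of its listed promoters, and TGATGNAA from 24.6% to 13.1%, without the 50 bases after the start. The cause of these changes was not tested. With the replicate number as a block 7275 genes were called, which changed no count by over 1.5 times, and ORC5, PSME2 and CTSG lost their call. Alternatives were also run for 262 genes named in the text. Of their 5213 values under alternatives, 5088 kept direction and call, 104 lost the call and 21 turned sign. Most of these genes were chosen for large changes, so the counts do not describe genes in general. Of 1760 list medians under alternatives, 1379 stayed within 1 SD of the array-to-array spread of that median. A gene undetected in a group has only a bound there.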
